A study of Homo sapiens with 12 samples.

Results

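The genes described here encode 28 proteins of the small subunit of the human cytosolic ribosome: RPSA, FAU and RPS genes from RPS2 to RPS29. They were taken as a list of symbols by the protein they encode, without a threshold on any measured value. For each symbol the coding open reading frames (ORFs) called at its RefSeq gene were summed, leaving out frames that share codons with a more abundant one. All 28 genes had footprints and passed the filter on low counts, out of 6377 genes with a coding ORF and 4767 that passed the filter. The study profiled ribosome footprints, the mRNA pieces that ribosomes shield from nuclease, in HEK293 cells, a human embryonic kidney cell line. Cells had been starved of amino acids for 1 h in a salt solution with vitamins and 10% fetal bovine serum, deprived of serum for 2 h, or kept in log phase in full medium with 10% serum. Footprints came from monosomes, single ribosomes on an mRNA, or from polysomes, several ribosomes on an mRNA. Each of the 6 groups had 2 libraries, called A and B after the letters in the deposited table, and the labels name no genetic change in any group.

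The small subunit binds the mRNA, scans for the start codon and reads codons in its decoding centre. Its proteins coat the head, which closes over the mRNA, the body, and the platform, where mRNA leaves. Most mRNAs of ribosomal proteins are 5'TOP mRNAs, which begin with a run of pyrimidines. The translation of this class is known to follow mTORC1, a kinase that responds to amino acids and growth factors, through the binding protein LARP1. The data address where ribosomes sat on these mRNAs in each fraction, and how that differed under the starvation conditions.

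Runs of pyrimidines near annotated starts are shown first, because 5'TOP mRNAs begin with such a run. Windows of 30 bases, with 10 before the most upstream annotated start of transcription and 20 from it, were read from RefSeq (GRCh38.p14) for 25 of the 28 genes. A run was counted as C followed only by C or T, on the sense strand, anywhere in the window. A counted run therefore need not begin at the first base of the mRNA. A run of at least 5 bases was found in 23 of the 25 windows (92%), against 38.3% of all coding windows, and a run of at least 8 in 19 (76%), against 10.1%. The longest run had a median length of 11 bases in these genes and 4 in all coding windows. Relative to the annotated first base, the longest run began at 10 in RPS27A, 9 in RPS15 and 6 in RPS26. In the other windows with a run of at least 5 it began between -8 (RPS7) and 1 (RPS28). RPS29 and RPS4X had no run of 5 bases in this window. The RPS29 window (chr14:49598691-49598720, minus strand) lay far upstream of the called ORF, which began at 49586349, so it may not hold the start of the translated mRNA. The following windows belong to the 4 genes with the largest and the 4 with the smallest change under amino acid starvation in polysomes, largest first by the fit without a replicate block, with the longest run in capitals.
RPS27 (chr1:153990752-153990781, plus strand): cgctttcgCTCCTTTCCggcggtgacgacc
RPS12 (chr6:132814559-132814588, plus strand): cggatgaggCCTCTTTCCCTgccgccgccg
RPS28 (chr19:8321486-8321515, plus strand): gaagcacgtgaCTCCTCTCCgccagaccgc
RPS18 (chr6:33272065-33272094, plus strand): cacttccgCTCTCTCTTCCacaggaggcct
RPS7 (chr2:3575250-3575279, plus strand): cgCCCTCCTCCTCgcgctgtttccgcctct
FAU (chr11:65122115-65122144, minus strand): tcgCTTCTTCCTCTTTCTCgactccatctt
RPS4X (chrX:72277229-72277258, minus strand): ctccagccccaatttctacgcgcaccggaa
RPSA (chr3:39406710-39406739, plus strand): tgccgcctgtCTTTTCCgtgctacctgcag
The run measured 9 bases in RPS27 and RPS28, 11 in RPS12, RPS18 and RPS7, 16 in FAU and 7 in RPSA. Over these 25 genes (genes of 1 study, not replicates) run length and the polysome change had a Spearman's rho of 0.06 in the fit with a replicate block.

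Monosome libraries held 354509 to 1204002 footprints in all, of which 119947 to 346200 lay in coding ORFs. Polysome libraries held 2477832 to 7683764, with 1493881 to 5313462 in coding ORFs. Monosome values therefore rest on fewer footprints: RPS18 had 7 in its shallowest monosome library, and RPS27 had 8. RPS18 was counted over an 18 nt stretch only, RPS27 over 123 nt and RPS29 over 207 nt, and the median of the 28 called ORFs was 438 nt. The line markers VIM and KRT8 had 20 to 578 and 0 to 5 footprints per library, and KRT18 and PAX2 had no kept coding ORF. COL1A1, a fibroblast marker, had 0 to 20, and PTPRC, ALB and HBB had no kept coding ORF.

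The small-subunit genes took a lower share of coding footprints in amino acid starvation than in log phase, in both fractions. In monosomes they held 2.19 and 3.03% of coding footprints in amino acid starved libraries A and B, 5.25 and 5.24% in serum starved libraries, and 5.20 and 6.09% in log phase. In polysomes they held 1.74 and 1.38% in amino acid starved libraries, 4.30 and 2.77% in serum starved libraries, and 5.09 and 4.11% in log phase. Both amino acid starved libraries lay below both log phase and both serum starved libraries in each fraction, while serum starved and log phase libraries overlapped. Over ORFs annotated as coding sequences alone, which 14 of the genes have, the share was 3.99 and 5.37% in amino acid starved monosomes, 10.02 and 9.88% in serum starved and 10.06 and 11.1% in log phase monosomes. In polysomes it was 2.74 and 2.57%, 6.43 and 4.71%, and 7.31 and 7.04% in the same conditions. By this narrower count serum starved libraries lay below both log phase libraries in each fraction, in monosomes by a small margin. Wilson 95% intervals were at most 0.253 points wide, and they cover counting error only. Because each library is scaled to itself, these are relative values, and fewer ribosomes per mRNA cannot be told apart from less mRNA.

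**Figure D1:**
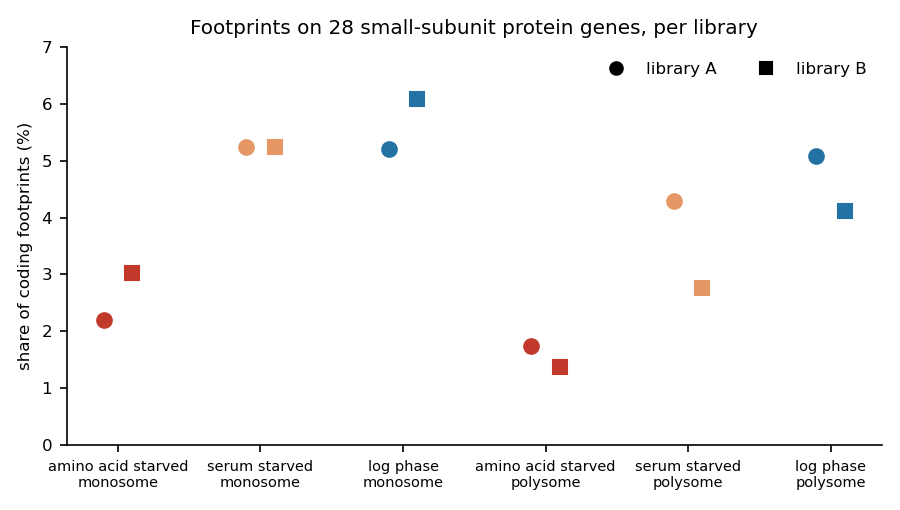
Percent of all coding footprints that fell on the 28 small-subunit genes, one point per library (circle A, square B), by condition and fraction. The amino acid starved libraries sit between 1.38 and 3.03%, below every serum starved and log phase library of their fraction.

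Footprint levels were compared as CPM, counts scaled by TMM to a common library size. Per kb of ORF, the highest mean levels in log phase polysomes were those of RPS18 at 16367, RPS19 at 11948 and RPS23 at 11649.7 CPM per kb. RPSA at 208, RPS2 at 559 and RPS28 at 579 CPM per kb were lowest. The order differed in log phase monosomes, where RPS21 stood first at 49329.7 CPM per kb and RPS12 second at 12498. RPSA at 325 and RPS2 at 383 CPM per kb were lowest there as well. Levels set per length depend on which part of a coding sequence was called, most of all for the short RPS18 stretch. The counted frames of RPSA and RPS18 held 3369.6 and 3723.8 footprints over all libraries. Noncoding frames within these genes, left out here, held 15660.7 and 27193.0.

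**Figure D2:**
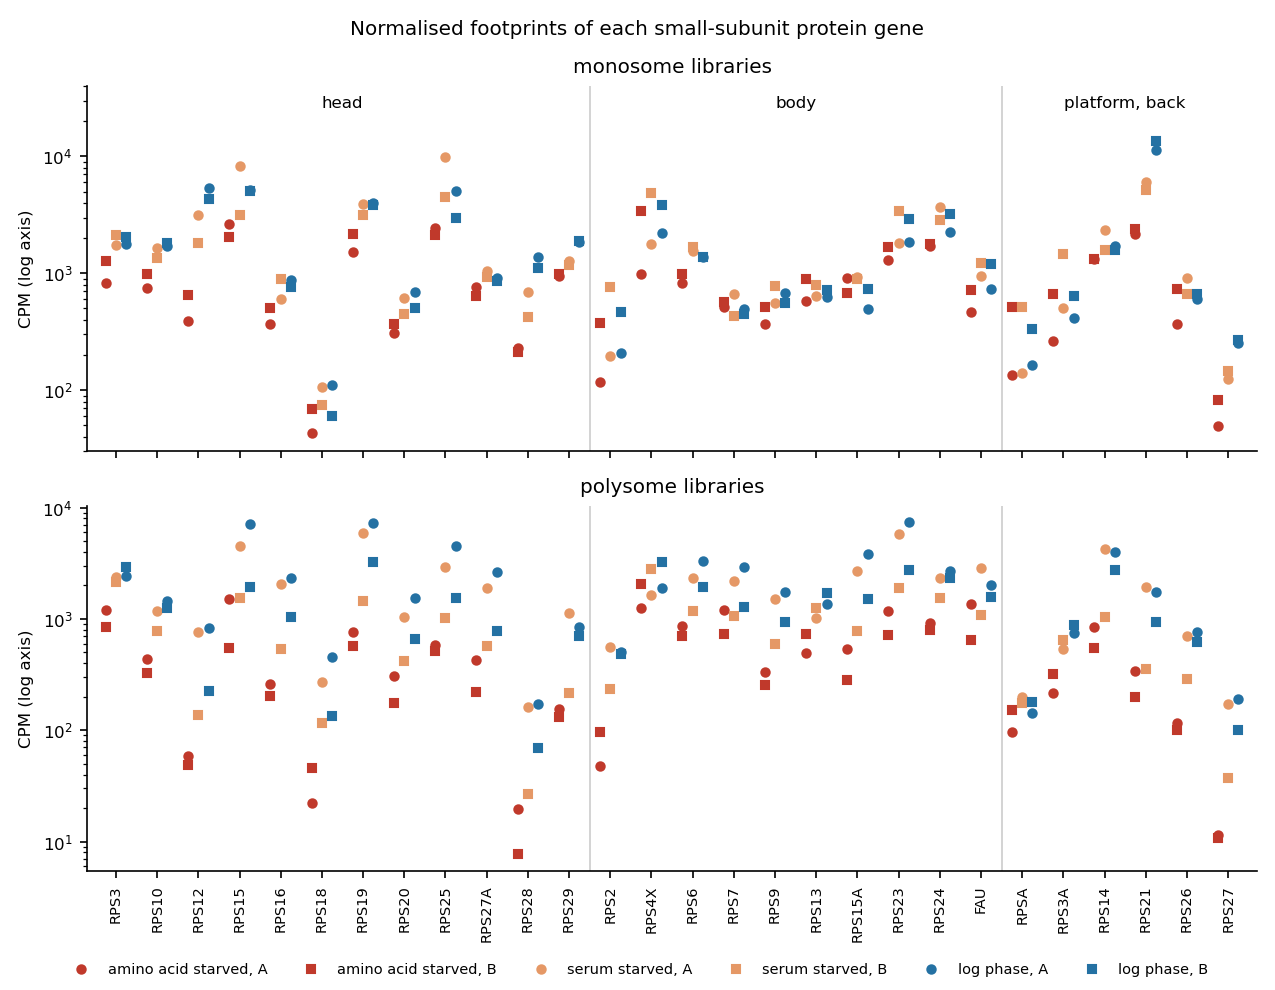
Normalised footprints (CPM after TMM scaling, log axis) of each gene in every library, in monosomes (top) and polysomes (bottom), grouped by place in the subunit, with amino acid starved left, serum starved in the middle and log phase right. In polysomes the amino acid starved points lie below both log phase points for 26 of 28 genes, and RPS21, RPS12 and RPS28 are far higher in monosomes than in polysomes.

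Amino acid starved polysomes held fewer footprints of nearly all small-subunit genes than log phase polysomes, relative to other genes. All 28 fitted changes were negative, with a median of -2.30 on the log2 scale, against -0.10 for all 4767 genes. For 26 of the 28 both amino acid starved libraries lay below both log phase libraries, which held for 17.7% of all genes. The model without a replicate term called 0 of the 28 genes (edgeR's quasi-likelihood test, Benjamini-Hochberg adjustment, smallest adjusted p = 0.166), as it called 0% of all genes. At an unadjusted p under 0.05 it had 24 of the 28, all lower, against 250 of all 4767 genes lower. DESeq2 called 19 after adjustment, and no share over all genes was taken for DESeq2, here or below. Libraries of the same letter deviated from their group means together, most of all between polysome groups (Pearson r across genes 0.77 to 0.866). Between monosome groups r was only 0.214 to 0.314, and between a monosome and a polysome group 0.161 to 0.422. The letter was also fitted as a replicate block, with the same effect for both fractions although the letters agreed less in monosomes. Values given in brackets for single genes come from that fit unless another is named. With the replicate block 23 of the 28 genes fell and 0 rose, against 4.93% of all genes lower, with a median of -2.27. The call rests on few libraries: with the block it shrank to 0, 2 and 3 genes without amino acid starved polysome library A, amino acid starved polysome library B or log phase polysome library A, and without the block it was 9 without serum starved polysome library A or B. The labels do not say that the 2 libraries of a group came from separate cultures, so p-values measure only the spread between these libraries.

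Of the head proteins 11 of 12 fell with the block (median -2.35), the exception being RPS3. RPS28, which lies near the mRNA exit, had 19.8 and 7.69 CPM in amino acid starved polysomes, against 174 and 69.6 CPM in log phase polysomes (log2 fold change -3.15, SE 0.50, adjusted p = 0.000755). The footprints behind the starved values were 33 and 23. RPS12, a protein of the beak of the head, had 58.7 and 49.1 CPM in amino acid starved and 836 and 225 CPM in log phase polysomes (-3.08, SE 0.59, adjusted p = 0.00205). In both genes the starved libraries lay well below the log phase libraries, and log phase library A was the highest. RPS19, the gene most often mutated in Diamond-Blackfan anaemia, had 763 and 576 CPM in starved and 7243 and 3223 CPM in log phase polysomes (-2.89, SE 0.57, adjusted p = 0.00247). RPS16, whose tail reaches the tRNA in the peptidyl site, had 259 and 204 CPM and 2342 and 1048 CPM in the same groups (-2.81, SE 0.51, adjusted p = 0.00173). RPS18 fell as well (-2.83, SE 0.49, adjusted p = 0.00143), on 37 and 138 footprints in amino acid starved polysomes. Ranges did not overlap for any of the 3 genes.

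Smaller falls of head proteins were those of RPS29 (-2.42, adjusted p = 0.00369), a zinc-binding protein, RPS27A (-2.29, adjusted p = 0.00375), made as a fusion with ubiquitin, and RPS25 (-2.26, adjusted p = 0.00791), which some viral RNAs need for internal initiation. RPS20 (-2.13, adjusted p = 0.00301) and RPS10 (-1.82, adjusted p = 0.009) are both ubiquitinated when ribosomes collide, and both fell. RPS15, whose tail lies near the decoding site, fell too (-2.06, adjusted p = 0.0153). RPS3, which lines the mRNA entry channel, had 1207 and 847 CPM in amino acid starved and 2434 and 2954 CPM in log phase polysomes. Its libraries did not overlap, but it missed the threshold (-1.38, SE 0.46, adjusted p = 0.0505).

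Of the body proteins 7 of 10 fell with the block (median -1.63). RPS2, of the mRNA entry channel, had 47.3 and 95.9 CPM in amino acid starved polysomes, against 505 and 481 CPM in log phase polysomes (-2.90, SE 0.53, adjusted p = 0.00168). RPS15A had 532 and 283 CPM in starved and 3851 and 1520.5 CPM in log phase polysomes (-2.67, SE 0.51, adjusted p = 0.00205). The starved libraries of both genes lay below the lower log phase library by a wide margin. RPS23, which helps keep decoding accurate, had 1189 and 715 CPM in starved and 7388 and 2748 CPM in log phase polysomes (-2.38, SE 0.58, adjusted p = 0.0106). RPS9 (-2.16, adjusted p = 0.0038), also of the entry channel, RPS24 (-1.55, adjusted p = 0.0322) and RPS13 (-1.34, adjusted p = 0.0334) fell. RPS6, the protein phosphorylated by the S6 kinases downstream of mTORC1, had 871 and 699.7 CPM in starved and 3289 and 1934 CPM in log phase polysomes (-1.71, SE 0.46, adjusted p = 0.0169), with no overlap. RPS7 (-1.06, adjusted p = 0.109), FAU (-0.88, adjusted p = 0.249), made as a fusion with a ubiquitin-like protein, and RPS4X (-0.62, adjusted p = 0.425) did not pass. RPS4X had 1263 and 2052 CPM in amino acid starved and 1879.9 and 3269 CPM in log phase polysomes, so its groups overlapped.

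Of the proteins of the platform and the back of the subunit 5 of 6 fell with the block (median -2.29). RPS27, a zinc-binding protein, had the largest change of all 28, at 11.4 and 10.7 CPM in amino acid starved polysomes, against 190.2 and 99.7 CPM in log phase polysomes (-3.62, SE 0.51, adjusted p = 0.00015). It was counted from 19 and 32 footprints in the starved libraries. RPS26, which touches mRNA upstream of the start codon, had 116 and 99.9 CPM in starved and 762 and 619 CPM in log phase polysomes (-2.67, SE 0.46, adjusted p = 0.00133). In both genes the groups stood clear of each other, and the starved libraries were close together. RPS21 (-2.30, adjusted p = 0.013), RPS14 (-2.29, adjusted p = 0.00521), whose loss in blood cells causes a form of anaemia, and RPS3A (-1.64, adjusted p = 0.0133) fell as well. RPSA, also known as the laminin receptor precursor, had 97.0 and 151 CPM in amino acid starved and 142 and 177 CPM in log phase polysomes (-0.41, SE 0.42, adjusted p = 0.574). Its groups overlapped, and its change was the smallest of the 28. The counted RPSA frame, a truncated form, held 3369.6 footprints over all libraries. Noncoding frames within the gene, 14 in number and left out here, held 15660.7.

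Related genes were listed for comparison. Of 38 tested large-subunit protein genes 29 fell and 0 rose with the block, with a median of -2.11, such as RPL12 (-3.91, adjusted p = 9.93e-05) and RPL21 (-2.52, adjusted p = 0.000755). Of 15 other tested 5'TOP genes, mainly translation factors, 1 fell, TPT1 (-1.62, adjusted p = 0.0137), and 0 rose, with a median of -0.42. Of 18 tested factors that assemble the small subunit 3 rose and 0 fell, with a median of 0.72, such as TSR1 (1.36, adjusted p = 0.0272) and NOP56 (1.20, adjusted p = 0.0436). The median of the small-subunit genes thus lay near that of the large-subunit genes, and the differences between these lists were not tested.

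**Figure D3:**
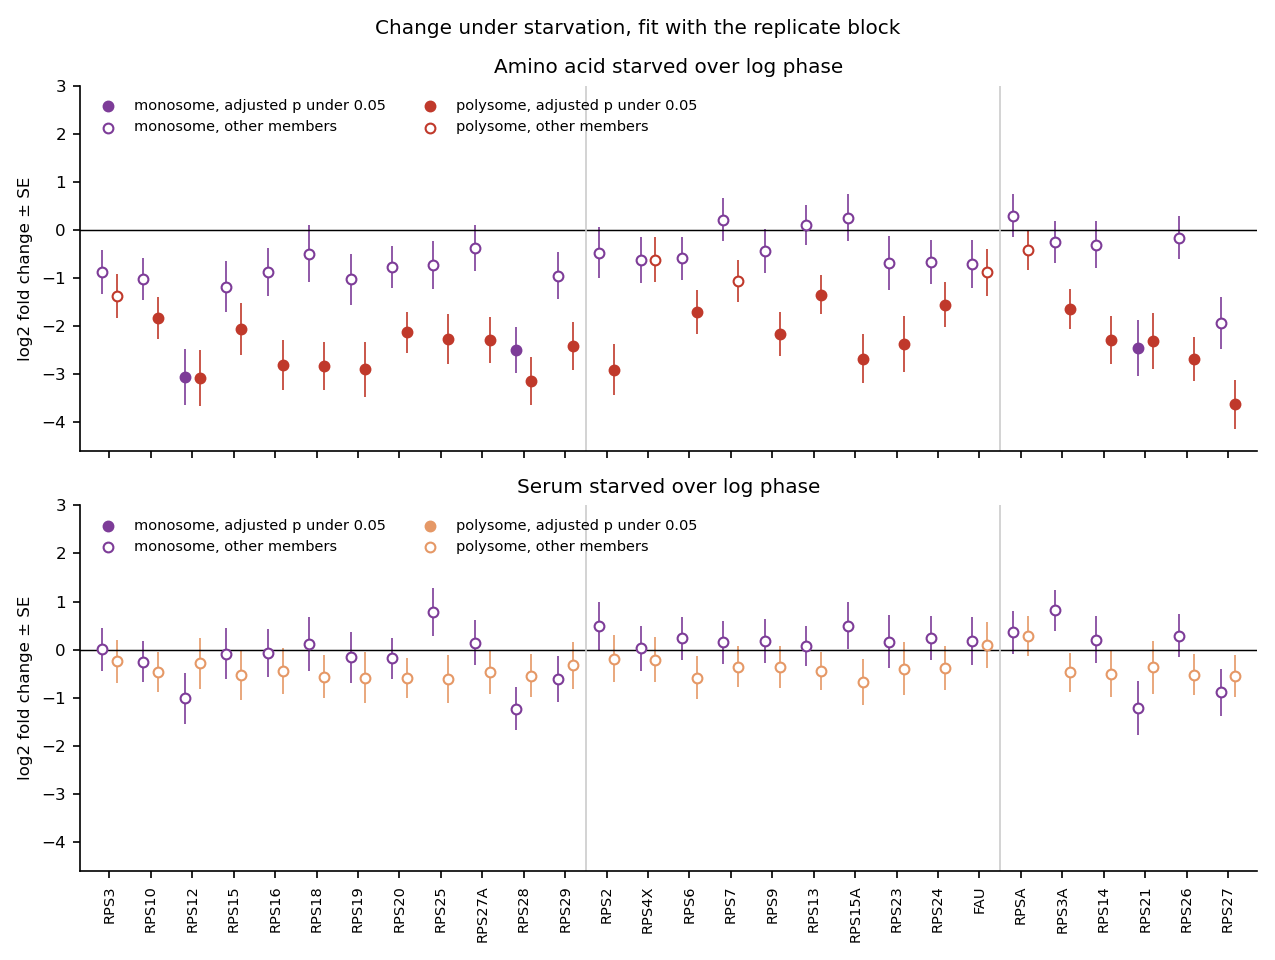
Log2 fold change ± SE of each gene under amino acid starvation (top) and serum starvation (bottom), monosomes left and polysomes right of each pair, from the edgeR fit with the replicate block; filled points have an adjusted p under 0.05. Under amino acid starvation 23 genes are filled in polysomes and 3 in monosomes, and under serum starvation none is filled.

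In monosomes the difference between amino acid starvation and log phase was smaller for most of these genes. With the block it was about as large as in polysomes for RPS12, RPS21 and RPS4X. RPS4X did not pass in either fraction (-0.63 in monosomes, adjusted p = 0.69). The median change was -0.66, against -0.01 for all genes, and 24 of the 28 values were negative. Without the block edgeR called 0 of the 28, as it called 0% of all genes, and DESeq2 called 2. At an unadjusted p under 0.05 edgeR without the block had 4 of the 28, all lower, against 121 of all 4767 genes lower. With the replicate block 3 genes fell and 0 rose, against 0.399% of all genes lower, with a median of -0.67. RPS12 had 394 and 653 CPM in amino acid starved monosomes, against 5318 and 4280.1 CPM in log phase monosomes (-3.06, SE 0.59, adjusted p = 0.00666). RPS28 had 228 and 210.1 CPM in starved and 1382 and 1112 CPM in log phase monosomes (-2.50, SE 0.48, adjusted p = 0.00717). RPS21 had 2184 and 2389 CPM in starved and 11249 and 13614 CPM in log phase monosomes (-2.46, SE 0.59, adjusted p = 0.0319). In each of the 3 genes the libraries of a group lay close together and far from those of the other group. The call was 0 genes without amino acid starved monosome library A and 1 without log phase monosome library B.

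RPS27 had 49.2 and 82.2 CPM in amino acid starved monosomes, against 252 and 268 CPM in log phase monosomes, and missed the threshold (-1.93, SE 0.54, adjusted p = 0.08). For 19 genes both amino acid starved libraries lay below both log phase libraries, which held for 22.7% of all genes. For RPS7 both lay above, against 22.1% of all genes. All 12 head proteins had negative values (median -0.91), among them RPS15 (-1.18, adjusted p = 0.4), RPS19 (-1.03, adjusted p = 0.494) and RPS10 (-1.01, adjusted p = 0.346). Body proteins had a median of -0.53, and RPS15A (0.26), RPS7 (0.22) and RPS13 (0.10) were positive without passing (adjusted p = 0.918, 0.927 and 0.968). RPSA was the fourth positive value (0.30, adjusted p = 0.887). With the block 1 of 38 large-subunit genes fell, RPL41 (-2.67, adjusted p = 0.00444), and the list median was -0.57. Of the other 5'TOP genes (median -0.01) and the assembly factors (median -0.08) 0 passed with the block. At an unadjusted p under 0.05 there were 2 of 15 and 1 of 18, all lower, against 261 of all 4767 genes lower.

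The median monosome over polysome ratio of the small-subunit genes was higher in amino acid starvation than in log phase, for both letters. The median ratio of the 28 genes within a letter was 0.77 and 1.29 (log2, A and B) in amino acid starvation, -0.53 and 0.82 in serum starvation and -0.86 and 0.09 in log phase. The A and B ratios lay further apart in serum starvation and log phase than in amino acid starvation. The edgeR test of the change in ratio between amino acid starvation and log phase called 0 of the 28 genes without the block. The median change of the 28 was 1.44, against 0.03 for all genes, and DESeq2 called 2. At an unadjusted p under 0.05 edgeR without the block had 6 of the 28, all higher, against 158 of all 4767 genes higher. With the replicate block 2 were higher, against 1.09% of all genes higher, and 26 of the 28 values were positive (median 1.42). RPS15A had 911 and 681 CPM in monosomes and 532 and 283 CPM in polysomes of amino acid starved cells. In log phase it had 493 and 738 CPM in monosomes and 3851 and 1520.5 CPM in polysomes (change in log2 ratio 2.93, SE 0.70, adjusted p = 0.0268). Its monosome libraries were thus the higher ones in starved cells and the lower ones in log phase.

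RPS26 had 369 and 740.0 CPM in monosomes and 116 and 99.9 CPM in polysomes of amino acid starved cells. In log phase the gene had 597 and 667 CPM in monosomes and 762 and 619 CPM in polysomes (change in log2 ratio 2.52, SE 0.63, adjusted p = 0.0364). RPS12 (0.01), RPS21 (-0.16) and RPS4X (-0.01) had changes near 0, with SE of 0.69, 0.79 and 0.67. With the block the count was 0 without log phase monosome A, amino acid starved monosome B, serum starved monosome B, log phase polysome A or either amino acid starved polysome library. It was 1 without serum starved monosome A or log phase polysome B, 4 without amino acid starved monosome A or serum starved polysome A, and 6 without serum starved polysome B.

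Amino acid starved polysomes were also set directly against serum starved polysomes. All 28 values were negative, with a median of -1.89, against -0.07 for all genes, and the groups of 25 genes did not overlap with amino acid starvation lower, against 12.4% of all genes. The model without the block called 0 (edgeR, smallest adjusted p = 0.621), and DESeq2 called 11. At an unadjusted p under 0.05 edgeR without the block had 20 of the 28, all lower, against 174 of all 4767 genes lower. With the replicate block 12 were lower and 0 higher, against 1.07% of all genes lower, with a median of -1.79. Of the head proteins 7 of 12 passed, of the body proteins 3 of 10 and of the platform and back proteins 2 of 6. RPS27 had 11.4 and 10.7 CPM in amino acid starved polysomes, against 173 and 37.6 CPM in serum starved polysomes (-3.07, SE 0.51, adjusted p = 0.00283). RPS2 had 47.3 and 95.9 CPM in amino acid starved and 562 and 233 CPM in serum starved polysomes (-2.71, SE 0.53, adjusted p = 0.00996). Serum starved library A was the highest and serum starved library B the lower of its pair in both genes.

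The other 10 were RPS12 (-2.79), RPS28 (-2.61), RPS16 (-2.37), RPS19 (-2.31), RPS18 (-2.27), RPS26 (-2.15), RPS29 (-2.09), RPS15A (-1.99), RPS27A (-1.83) and RPS9 (-1.79), with adjusted p between 0.00835 and 0.0498. With the block the count was 0 without amino acid starved polysome A, amino acid starved polysome B or serum starved polysome A, 7 without serum starved monosome B and 22 without serum starved polysome B. In the model without the block it was 6 without serum starved polysome B. Of 38 large-subunit genes 15 were lower with the block, with a median of -1.55. Of 15 other 5'TOP genes 0 passed (median -0.40), with 2 lower at an unadjusted p under 0.05. Of 18 assembly factors 0 passed (median 0.50), with 6 higher at an unadjusted p under 0.05. At that unadjusted p 503 of all 4767 genes were lower and 353 higher.

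No small-subunit gene passed between serum starvation and log phase in either fraction. In polysomes edgeR called 0 of the 28 with and without the block, against 0% of all genes with it, 0 were at an unadjusted p under 0.05 in either model, and DESeq2 called 0. The median was -0.45 with the block and 26 of the 28 values were negative, and for 4 genes both serum starved libraries lay below both log phase libraries, against 3.57% of all genes. Those 4 were RPS3A (-0.47, adjusted p = 1), RPS10 (-0.47, adjusted p = 1), RPS13 (-0.44, adjusted p = 1) and RPS3 (-0.24, adjusted p = 1). RPS6 had 2315 and 1189 CPM in serum starved and 3289 and 1934 CPM in log phase polysomes, so that the spread between letters was larger than the spread between conditions (-0.58, SE 0.45, adjusted p = 1). In the model without the block the median was -0.39, and it ranged from -1.28 without serum starved polysome A to 0.10 without log phase polysome A.

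In monosomes edgeR called 0 of the 28 as well, against 0.021% of all genes with the block, and DESeq2 called 0. At an unadjusted p under 0.05 edgeR had 2 with the block, both lower, against 161 of all 4767 genes lower, and 0 without it. The median was 0.13 with the block. For 6 genes both serum starved libraries lay below both log phase libraries, against 17.7% of all genes, and for RPS27A, RPS6 and RPS15A both lay above, against 13.4% of all genes. RPS28 had 690.1 and 425 CPM in serum starved monosomes, against 1382 and 1112 CPM in log phase monosomes (-1.23, SE 0.45, adjusted p = 0.754). RPS21 had 5989.5 and 5116 CPM in serum starved and 11249 and 13614 CPM in log phase monosomes (-1.22, SE 0.56, adjusted p = 0.851). RPS12 had 3141 and 1827 CPM in serum starved and 5318 and 4280.1 CPM in log phase monosomes (-1.02, SE 0.54, adjusted p = 0.88). Both serum starved libraries lay below both log phase libraries in these 3 genes, which are also the 3 that fell in amino acid starved monosomes against the same log phase libraries. Higher values that did not pass were those of RPS3A (0.82, adjusted p = 0.87) and RPS25 (0.78, adjusted p = 0.97), with RPS25 at 9838 and 4495 CPM in serum starved and 5049 and 2965 CPM in log phase monosomes.

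Between fractions the small-subunit genes split, and 3 of them stood far toward monosomes in every condition. Averaged over the 3 conditions 7 of the 28 genes were higher in monosomes, against 17% of all genes, and 1 was lower, against 21.8%, when no block was fitted. With the block 11 were higher, against 24% of all genes, and 2 lower, against 30.3%. The difference of these shares from those of other genes was not tested. The median was 0.31, against -0.18 for all genes. It was -0.35 over the A libraries and 0.76 over the B libraries, and it turned to -0.08 without amino acid starved monosome B or without serum starved monosome B. Monosome and polysome libraries lay apart in 2 genes with monosomes higher (9.63% of all genes) and in 1 with monosomes lower (11.9%).

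RPS28 had 210.1 to 1382 CPM in the 6 monosome libraries (median 557), against 7.69 to 174 CPM in the 6 polysome libraries (median 48.2) (log2 fold change 3.31, SE 0.46, adjusted p = 0.00011 without the block). RPS21 had 2184 to 13614 CPM in the 6 monosome libraries (median 5553), against 199.8 to 1925 CPM in the 6 polysome libraries (median 647). Its change without the block was 2.86 (SE 0.44, adjusted p = 0.000251). RPS12 had 394 to 5318 CPM in the 6 monosome libraries (median 2484), against 49.1 to 836 CPM in the 6 polysome libraries (median 181). Its change without the block was 2.97 (SE 0.48, adjusted p = 0.000328). The ranges of RPS28 and RPS21 did not touch, while the amino acid starved monosome libraries of RPS12 lay within the range of its log phase polysome libraries. Within every condition and letter all 3 genes were higher in the monosome library, with log2 ratios of 2.09 to 4.77 in RPS28, 1.64 to 3.86 in RPS21 and 2.03 to 4.25 in RPS12. The other 4 higher in monosomes without the block were RPS29, RPS25, RPS27 and RPS26. Their changes in that fit were 1.63, 1.44, 1.26 and 0.97 (adjusted p = 0.00368, 0.0133, 0.0156 and 0.0266). RPS29, RPS25 and RPS10 were higher in the monosome library in 6 of 6 pairs, and RPS27 and RPS26 in 5 of 6.

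RPS7 was the gene lower in monosomes without the block (-1.52, SE 0.35, adjusted p = 0.0035 in that fit). RPS7 had 428 to 664 CPM in the 6 monosome libraries (median 504), against 726 to 2910.4 CPM in the 6 polysome libraries (median 1240.5), with no overlap. It was lower in the monosome library in 6 of 6 pairs. With the block RPS15 (0.95, adjusted p = 0.0107), RPSA (0.81, adjusted p = 0.00919), RPS10 (0.74, adjusted p = 0.013) and RPS24 (0.64, adjusted p = 0.0419) were higher as well, and FAU was lower (-0.78, adjusted p = 0.0257). By place in the subunit 6 of 12 head, 1 of 10 body and 4 of 6 platform and back proteins were higher with the block, and both lower ones belong to the body. The medians were 0.59, -0.28 and 0.91 in the same order.

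Values of the other members lay closer to 0. RPS18 (-0.69, adjusted p = 0.0541), RPS15A (-0.54, adjusted p = 0.113) and RPS13 (-0.53, adjusted p = 0.0577) had negative values, and RPS19 (0.44, adjusted p = 0.241), RPS2 (0.36, adjusted p = 0.327), RPS4X (0.31, adjusted p = 0.343) and RPS3A (0.21, adjusted p = 0.477) positive values that did not pass with the block. RPS9, RPS6, RPS23, RPS3, RPS16, RPS20, RPS14 and RPS27A lay between -0.33 and 0.12, with adjusted p of 0.298 to 0.808. Many of them switched sides between letters: RPS23 had a mean log2 ratio of -1.19 over the A libraries and 0.72 over the B libraries, and RPS2 -0.50 and 1.22. Of 38 large-subunit genes 4 were higher and 3 lower without the block (median 0.21), such as RPL41 (6.22, adjusted p = 1.06e-06) and RPL36AL (-1.82, adjusted p = 0.00267). In the same fit 8 of 15 other 5'TOP genes were higher and 0 lower (median 1.05), such as PABPC1 (3.70, adjusted p = 0.000217). Of 18 assembly factors 4 were higher and 5 lower in that fit (median -0.14), such as TSR3 (3.37, adjusted p = 2.79e-05) and DIMT1 (-1.71, adjusted p = 0.000407).

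**Figure D4:**
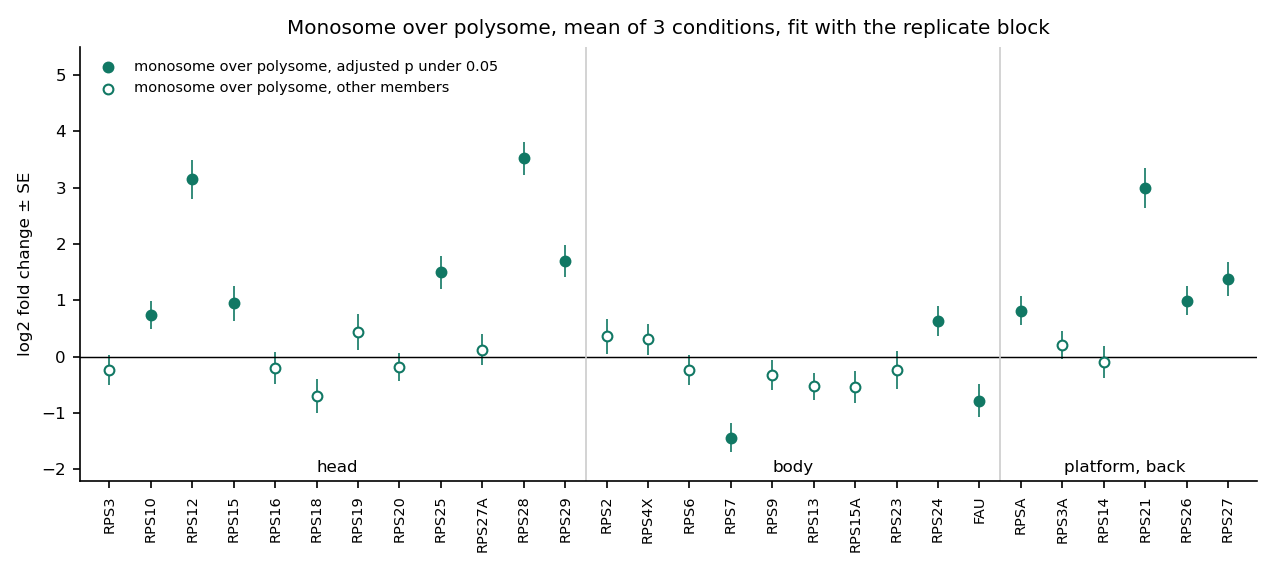
Log2 fold change ± SE of monosome over polysome libraries for each gene, averaged over the 3 conditions, from the edgeR fit with the replicate block; filled points have an adjusted p under 0.05. RPS28, RPS12 and RPS21 lie at or above 3.00, and RPS7 at -1.44 is lowest.

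The called ORFs of the 28 genes ran from 18 to 882 nt, and the changes followed their length in part. Over the 28 genes, which share all their libraries and do not count as replicates, length and the amino acid starvation change had a Spearman's rho of 0.602 in polysomes and 0.387 in monosomes, with the block. The longer genes RPSA, RPS4X and RPS3 had smaller changes in polysomes, and RPS2, the longest at 882 nt, did not follow this order. In polysomes all 6 genes under 300 nt fell (median -2.75), and 17 of the 22 others (median -2.09). For monosome over polysome rho was -0.347, and 4 of the 6 genes under 300 nt were higher (median 1.54) with 7 of the 22 others (median 0.17). RPS18 and RPS15A are short by their called ORF but were not among the higher ones. Of the 28 called ORFs 10 were annotated coding sequences, 9 truncated forms and 9 variants, and 15 did not start at ATG, so a called length can differ from that of the full protein.

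**Figure D5:**
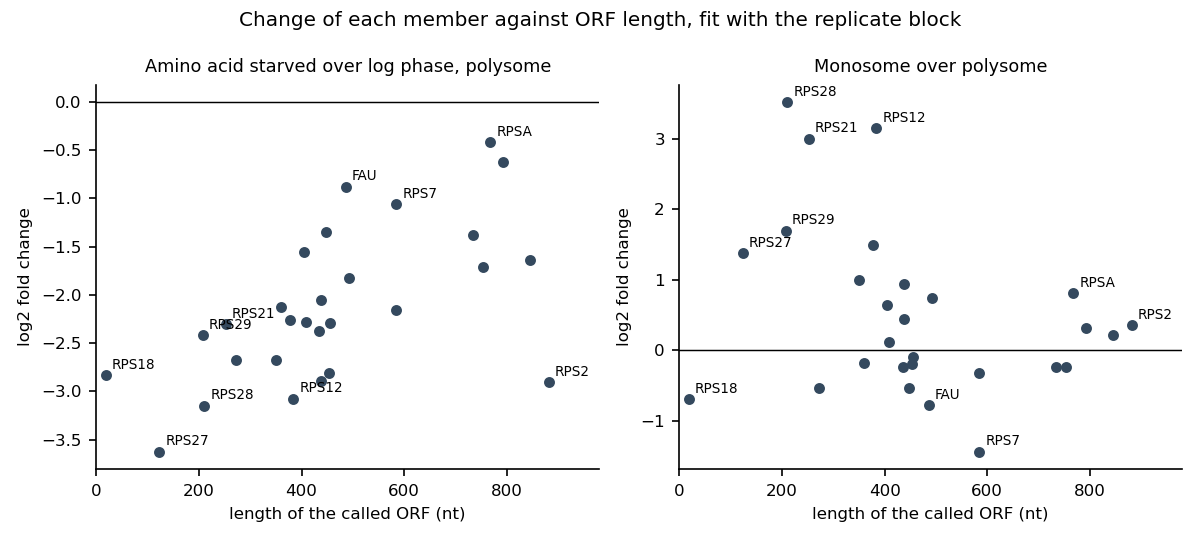
Log2 fold change of each gene against the length of its called ORF (nt), for amino acid starved over log phase polysomes (left) and monosome over polysome libraries (right), from the fit with the replicate block. Shorter ORFs tend to lie lower on the left (rho 0.602 across 28 genes), with RPS2 apart from the rest.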

How the data were processed

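The authors deposited a table of called open reading frames with expected counts of footprints per library and a caller p-value per frame, per the file headers. Bowtie 1.0 and hg38 are named in the submitters' processing notes, while the annotation and the treatment of multiply mapped reads are not given in the sources used here. Of 149028 frames 124829 were kept, leaving out any that shared a codon with a coding or more abundant frame already kept, and coding frames were added up by the table's gene identifier, then rounded for the count model. Symbols came from position: the frames of each of the 28 genes lie at least 90% inside its RefSeq gene. The RPS3A and FAU frames ran 26 and 31 nt past the RefSeq gene, RPS10 also lay in a read-through gene, and RPS15A was separated from a merged identifier. The caller p-value was not used as a filter.

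Genes were tested with edgeR 4.0.16 in R 4.3.3 (TMM, filter at a count of 10 and a total of 15, quasi-likelihood, 6 groups, Benjamini-Hochberg over 4767 genes), without a replicate term as the main model. Library letters deviated together in all 15 pairs of groups (Pearson r across genes 0.161 to 0.866), so a replicate block was also fitted. The SE of an edgeR change is its absolute log2 fold change divided by the square root of the test's F statistic. DESeq2 1.42.0, other scalings, no filter, annotated coding sequences alone and leaving out each library were the alternatives. Scripts were tested on simulated data. All 28 genes are named, by place in the subunit, and the genes and lists were chosen with earlier results of these data known. Depth was 354509 to 7683764 footprints per library.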

Additional observations from a re-analysis of the deposited data

Results flagged for a closer look

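The polysome response of 12 genes differed between amino acid and serum starvation in the direct test with the replicate block, and of 0 without it. The log2 difference, amino acid minus serum starvation, was -3.07 in RPS27, -2.79 in RPS12, -2.71 in RPS2, -2.61 in RPS28, -2.37 in RPS16, -2.31 in RPS19, -2.27 in RPS18, -2.15 in RPS26, -2.09 in RPS29, -1.99 in RPS15A, -1.83 in RPS27A and -1.79 in RPS9. With the block the amino acid starvation change also differed between monosomes and polysomes in RPS15A (2.93) and RPS26 (2.52), monosome minus polysome. Without the block neither passed (edgeR, adjusted p = 0.922 for both), and with the block 0 genes passed under library-size scaling or when any 1 of 6 of the 12 libraries was left out.

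Frames of other types within the 28 genes, left out of every comparison, also held footprints. There were 320 such frames, 142 of them noncoding and 73 internal. In serum starved monosomes they took 56.8 and 48.0% of the footprints in these genes, against 30 and 37.5% in log phase monosomes. In amino acid starved monosomes they took 30.7 and 42.6%. Upstream frames that overlap the coding sequence took 27.9 and 9.52% in serum starved monosomes, against 12.4 and 10.9% in log phase monosomes, so library A alone was high. In that library RPS21 and RPS25 held 1987.2 and 1036.1 of the 4075.4 footprints in such frames. Noncoding frames took 14 and 23.9% in serum starved monosomes, against 6.35 and 14.9% in log phase monosomes. In serum starved monosome library B, RPSA and RPS18 held 2453.7 and 1924.1 of the 7324.5 noncoding footprints. Other upstream frames were lower, at 1.55 and 1.88% in serum starved monosomes against 5.07 and 3.49% in log phase monosomes. In log phase monosomes RPS15 alone held 805.7 and 827.6 of the 1090.6 and 1176.9 footprints in such frames. In serum starved monosomes it held 132.2 and 297.6 of 226.5 and 573.6. Internal frames took 8.21 and 3.83% in serum starved monosomes and 3.02 and 3.14% in amino acid starved monosomes, against 2.93 and 2.82% in log phase monosomes. Frames of the orphan type took 0.681 and 0.623% in serum starved monosomes, against 0.148 and 0.405% in log phase monosomes. These differences were not tested, they lean on few genes in part, and the same shares were not taken over all genes.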

How the results depend on the processing

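With the replicate block the number of the 28 genes called was 13 for monosome over polysome, 23 for amino acid starved over log phase polysomes, 3 for monosomes, 12 for amino acid over serum starved polysomes and 2 for the change in ratio. DESeq2 called 19, 2, 11 and 2 for the last 4 of these, where edgeR without the block called 0. The share of all genes that DESeq2 called was not taken. Over annotated coding sequences alone, which 14 genes have, the model without the block called 4 between fractions and 1 for amino acid starved over log phase polysomes. The same model over all coding frames of the 28 genes called 8 and 0. The polysome median was -1.94 with library-size scaling, with or without the block, and the serum monosome median was 0.26 over annotated coding sequences. The median change in ratio was 1.30 with DESeq2 and with RLE, 1.13 with library size, 1.07 over annotated coding sequences, 1.26 with block and RLE and 1.05 with block and library size, and those 2 block settings called 1 and 0 genes for it. With block and library size 4 genes were called between amino acid and serum starved polysomes.

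Leaving out 1 library at a time, the call between fractions was 6 to 9 genes (9 to 15 with the block) and its median -0.08 to 0.46 (-0.05 to 0.36). Its sign turned without amino acid starved monosome B (-0.08) or serum starved monosome B (-0.08, and -0.05 with the block). For amino acid starved over log phase polysomes the call was 0 to 9 (0 to 24) and the median -2.57 to -1.71 (-2.35 to -1.80). In monosomes the median was -0.98 to -0.49 (-1.22 to -0.31), with 0 to 4 called with the block. Serum over log phase medians were -1.28 to 0.10 (-1.02 to -0.01) in polysomes and -0.09 to 0.16 (-0.27 to 0.28) in monosomes. Amino acid over serum starved polysomes gave 0 to 6 (0 to 22) called and a median of -2.46 to -0.98 (-2.27 to -1.08). The change in ratio had a median of 0.87 to 1.70 (0.89 to 1.73), with 0 to 6 called with the block. The cause of these shifts was not tested. With 2 libraries a group and 7 footprints in the thinnest case, monosome values of RPS18 and RPS27 are the least precise.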
